A study of Mus musculus with 4 samples.

Results

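mmu-miR-706 and the miRNAs mmu-miR-3473a, mmu-miR-3473b, mmu-miR-3473c, mmu-miR-3473d and mmu-miR-3473e form the group described here, which holds 6 of the 1915 mature mouse miRNAs counted in MIN6 cells and in MIN6-derived exosomes. The members were chosen by name, after their high counts in exosomes relative to cells were known. miR-3473f, with 9 and 6 counts in cells and 15 and 11 in exosomes (log2 fold change 5.59, SE 0.45), and miR-3473g, with 1 count in all, bear the family name but are not members. The levels of the members in exosomes and cells are a description. No p is given for them, and their calls in the fit over all miRNAs are only counted. The MIN6 line comes from a mouse insulinoma and makes insulin, and exosomes are small vesicles that cells release into their medium.

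The groups were MIN6 cells (2 libraries) and exosomes isolated from conditioned medium of such cells by centrifugation, filtration and ultracentrifugation (2 libraries), both from cultures in DMEM with exosome-depleted fetal bovine serum. All libraries come from 1 cell line, and the labels do not say whether the libraries of a group came from separate cultures, so the spread between them may be technical. The labels of all 4 libraries name the same serum and plasma kit for RNA, while the methods of the study, for PCR, name another kit for cells. Libraries were made by polyadenylation and template switching with the SMARTer smRNA-Seq kit, and the sequencer was the HiSeq 2500. Library quality was checked on 1 instrument for cells and on another for exosomes, and this difference in handling cannot be told apart from the group.

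Mature counts totalled 2930217 and 2564068 in the cells and to 47447 and 31409 in the exosomes, so values of single miRNAs were less precise in exosomes. The floor of 3 counts, taken as the limit of detection, equals 1.02 and 1.17 RPM (mature counts scaled so that each library sums to 1000000) in cells and 63.2 and 95.5 RPM in exosomes. The libraries of a group differed by more than sampling noise, with a chi-square per degree of freedom of 19.5 in cells and 58.2 in exosomes. The 4 beta-cell markers (miR-375 and miR-7) summed to 44801 and 44562 RPM in cells and to 21940.3 and 8787 RPM in exosomes. The 7 markers of blood or serum summed to 2.73 and 3.51 RPM in cells and to 7651 and 2229 RPM in exosomes, none of them at 0 in all libraries. The liver marker miR-122-5p was at 4.44 and 8.19 RPM in cells and at 1665 and 1974 RPM in exosomes. The part of blood, serum or liver RNA in the values of the members was not tested.

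miRNAs are short RNAs cut from hairpin precursors, and they recognise target mRNAs mainly through the seed near their 5′ end. The mouse genome also holds very many copies of the short interspersed elements B1 and B2. These are transcribed by RNA polymerase III, B1 descends from the 7SL RNA of the signal recognition particle and B2 from a tRNA, and copies also lie in the introns and untranslated regions of many genes. A short read with the letters of such an element fits many places in the genome, and its sequence alone does not tell from which of them it came.

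The mature sequences of the 6 members are shown because their shared letters set which counts can be told apart. They are written 5′ to 3′ as in the deposited files, with the seed (bases 2 to 8) in capitals.
mmu-miR-706: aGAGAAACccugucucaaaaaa
mmu-miR-3473a: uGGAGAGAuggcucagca
mmu-miR-3473b: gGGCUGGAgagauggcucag
mmu-miR-3473e: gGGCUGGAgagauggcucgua
mmu-miR-3473c: uCUCUCCAgcccccauaauaag
mmu-miR-3473d: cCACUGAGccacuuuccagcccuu

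miR-3473b and miR-3473e shared their seed and their first 18 bases, and differed only after them. miR-3473a held 16 bases of miR-3473b and 14 of miR-3473e, but it starts further along this run, so its seed is another. miR-3473c and miR-3473d run the other way: 12 bases of miR-3473c and 8 bases of miR-3473d were the reverse complement of letters in miR-3473b. miR-706 shared at most 5 bases with any miR-3473, so the group joins 2 unrelated sequences. The members were 18 to 24 bases long, and miR-706 had the lowest GC content (36.4%) and miR-3473b the highest (65.0%).

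The hairpins lie at 6 places on 6 chromosomes of GRCm38, and the hairpin sequences of the files matched the GENCODE annotation at each of them. mir-706 (a lower-case r marks the hairpin) lies at chr6:120034228-120034311 on the minus strand, in an intron of Wnk1, a kinase gene of salt transport, on the same strand. mir-3473a lies at chrX:162874918-162874995 (minus) in an intron of Syap1, on the same strand. mir-3473b lies at chr10:41670739-41670793 (plus) in an intron of Ccdc162, on the opposite strand. mir-3473c lies at chr1:191998554-191998634 (minus) and overlaps an exon of Traf5, which encodes an adaptor of tumour necrosis factor receptors. mir-3473d lies at chr8:111016450-111016530 (minus) in an intron of Ddx19b, and mir-3473e at chr5:31667231-31667340 (minus) in an intron of Rbks, the ribokinase gene. In 5 of the 6 the hairpin thus has the strand of the protein-coding gene around it, and mir-3473b is the exception.

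The label of the group, matching repeats, was checked against the transcripts of GENCODE vM21 by an exact search in 139565 transcripts of genes that are not miRNA genes. The full sequence of miR-706 was found on the sense strand of 208 genes, that of miR-3473a in 146 and that of miR-3473b in 344. miR-3473c, miR-3473d and miR-3473e were found in 0 genes on either strand, and also in 0 genes on the sense strand with 1 mismatch allowed. Within these transcripts the label therefore held for the full sequence of 3 of the 6 members. Sequence outside annotated transcripts was not searched, so 0 genes does not show that a member matches no repeat. The first 18 bases of miR-3473e, which are those of miR-3473b, occurred in 402 genes, those of miR-3473c in 2 and those of miR-3473d in 0. Among the 1851 mature miRNAs with a sequence, miR-3473b, miR-706 and miR-3473a had ranks 4, 5 and 6 by the number of genes.

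The matches lay on both strands in similar numbers. On the antisense strand miR-706 was found in 249 genes, miR-3473a in 135 and miR-3473b in 390. Of the 208 genes with miR-706 on the sense strand 171 were protein-coding and 25 lncRNA genes, and the protein-coding sites lay in the 3′ untranslated region in 86 genes, in the 5′ untranslated region in 4, in coding sequence in 2 and in transcripts without a coding region in 79. For miR-3473b the protein-coding genes numbered 238, with 113 sites in the 3′ untranslated region and 3 in coding sequence. For miR-3473a they numbered 101, with 49 and 2 such sites. The 5′ untranslated region held 3 sites for miR-3473a and 4 for miR-3473b, and transcripts without a coding region held 47 and 118. Coding sequence and the 5′ untranslated region were thus both rare places for each of these members.

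The letters around the sites were also shared from gene to gene. In the 25 bases upstream of a miR-706 site, the genes had the most frequent base at a mean of 82.7% per position. In the 25 bases downstream of the site the mean was 76.1% for miR-3473a and 79.1% for miR-3473b, against 49.3% and 42.3% upstream of them. The most frequent bases of these flanks are shown because they identify the surrounding element, which continues past the miRNA.
Upstream of miR-706: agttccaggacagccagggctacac
Downstream of miR-3473a: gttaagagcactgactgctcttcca
Downstream of miR-3473b: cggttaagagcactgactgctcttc
The first is the usual sequence of the 3′ part of B1, read towards its A-rich tail, which then follows the miRNA. The other two are the start of B2, offset by 2 bases from each other, as the ends of miR-3473a and miR-3473b are within the element. Thus miR-706 has the letters of B1, and miR-3473a and miR-3473b have those of B2.

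The most abundant member was mmu-miR-706, which had 2257 and 889 counts in cells and 3745 and 6942 counts in exosomes. Relative to the library this was 770.3 and 347 RPM in cells and 78930.2 and 221019 RPM in exosomes. It had rank 63 and 106 among all miRNAs in cells and rank 4 and 1 in exosomes. Although the exosome libraries were far smaller, both held more miR-706 reads than either cell library. The mean was 558 ± 299 RPM in cells and 149975 ± 100472 RPM in exosomes (SD, n = 2), a ratio of 269, and the exosome libraries themselves differed widely.

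mmu-miR-3473b, the B2-matching member with most counts, had 912 and 373 counts in cells and 1848 and 2680 in exosomes. These are 311 and 145 RPM in cells and 38949 and 85326 RPM in exosomes, with ranks 111 and 139 in cells and 7 and 3 in exosomes. Cells replicate 1 and exosomes replicate 2 were the higher library of their group, as they were for miR-706. The means were 228 ± 117 and 62137 ± 32794 RPM (SD, n = 2), a ratio of 272.

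mmu-miR-3473e, which carries the same seed, had 849 and 290 counts in cells (289.7 and 113 RPM) and 933 and 1363 counts in exosomes (19664 and 43395 RPM). Its exosome libraries were again higher in raw counts, but cells replicate 1 came close to exosomes replicate 1. The means were 201 ± 125 RPM in cells and 31530 ± 16780 RPM in exosomes (SD, n = 2), a ratio of 157, and its rank went from 115 and 152 to 11 and 6.

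mmu-miR-3473a was rare in cells. It had 17 and 14 counts in cells and 184 and 177 in exosomes, or 5.80 and 5.46 RPM against 3878 and 5635 RPM. The groups were far apart in counts as well as in RPM, and the libraries of each group were close to each other. The means of 5.63 ± 0.242 and 4757 ± 1243 RPM (SD, n = 2) gave the largest ratio of the group, 845.

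mmu-miR-3473d had fewer reads in exosomes than in cells, unlike the members above. It had 75 and 74 counts in cells and 14 and 9 in exosomes, and only relative to the library was it higher in exosomes, at 25.6 and 28.9 RPM in cells and 295 and 287 RPM in exosomes. The mean of 27.2 ± 2.31 RPM in cells and of 291 ± 6.03 RPM in exosomes (SD, n = 2) gave a ratio of 10.7. miR-3473c had 1 count in all, in cells replicate 2, so it was at or under the floor in every library and no fold is given.

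**Figure D1:**
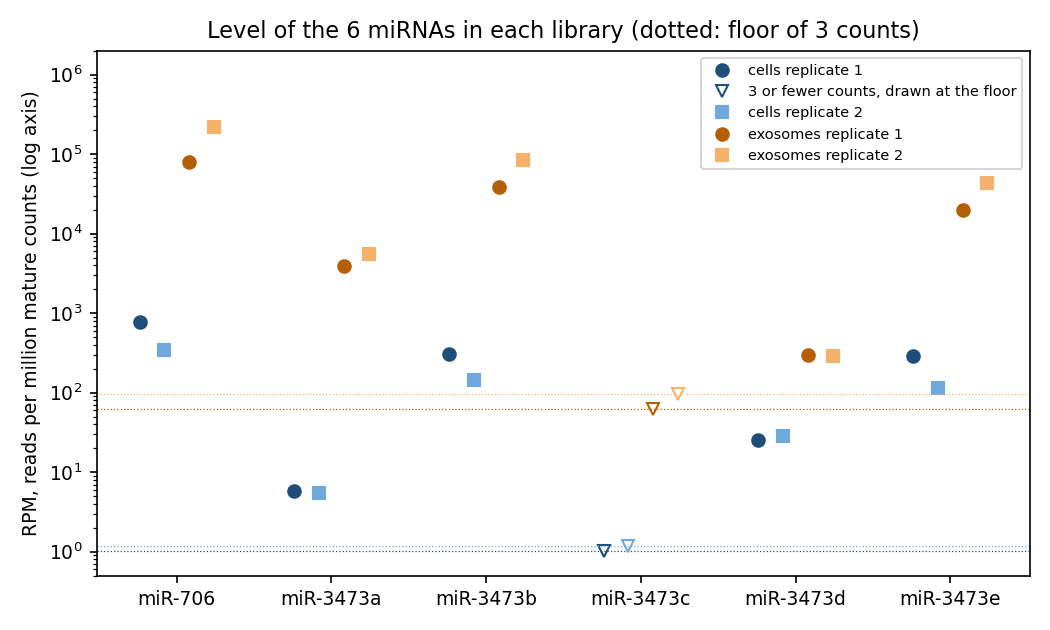
Level of each of the 6 members in each library, in RPM on a log axis, with circles and squares for replicates 1 and 2 and dotted lines at the floor of 3 counts of each library. miR-706, miR-3473a, miR-3473b and miR-3473e are higher in both exosome libraries by a wide margin, miR-3473d by less, and miR-3473c is drawn at the floor in all 4 libraries.

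In raw counts, the exosome libraries lay above both cell libraries for miR-706, miR-3473a, miR-3473b and miR-3473e, 4 of the 6 members, while 5.54% of the 1101 miRNAs with a count did so. Since the members were chosen by name after the high counts in exosomes were known, nothing is read from this share.

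The 6 members together took 0.140% and 0.0640% of the mature counts in cells and 14.2% and 35.6% in exosomes, with 95% Wilson intervals of 13.9% to 14.5% and of 35.0% to 36.1% for the exosomes. The intervals cover counting error only, and the exosome libraries differed by far more than that. miR-3473a to miR-3473e took 0.0632% and 0.0293% in cells and 6.28% and 13.5% in exosomes. miR-706 thus held more than these 5 together in each library, with 7.89% and 22.1% of the mature counts in exosomes. A read with letters common to several miRNAs may be counted at each of them, so these shares may count some reads more than once. With reads of the 6 hairpins over all hairpin reads, the mean share in exosomes was 7.76% ± 2.98 in place of 24.9% ± 15.1 (SD, n = 2).

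The proportions between the members varied by pair. The ratio of miR-706 to miR-3473b counts was 2.47 and 2.38 in cells and 2.03 and 2.59 in exosomes. The groups overlapped, so the B1-matching and the B2-matching member kept about the same proportion in all 4 libraries. The ratio of miR-3473b to miR-3473e, which differ only after base 18, was 1.07 and 1.29 in cells and 1.98 and 1.97 in exosomes. Here the groups did not overlap. Such a separation was frequent in these libraries. Normalized values of single miRNAs did not overlap for 33.3% (higher in exosomes) and 51.8% (lower) of the 438 tested. As a share of both, miR-3473b took 51.8% (Wilson 49.5% to 54.1%) and 56.3% (52.5% to 60.0%) in cells and 66.5% (64.7% to 68.2%) and 66.3% (64.8% to 67.7%) in exosomes. The ratio of miR-3473a to miR-3473b was 0.0186 and 0.0375 in cells and 0.0996 and 0.0660 in exosomes, higher in both exosome libraries. That of miR-3473d to miR-3473b was 0.0822 and 0.198 in cells and 0.00758 and 0.00336 in exosomes, lower in both exosome libraries. With 2 libraries against 2, an exact permutation test (two-sided) cannot go below p = 0.333, and none was made.

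Fold changes were taken from a fit over all 438 miRNAs with sufficient counts (edgeR, TMM normalization), where 5 of the 6 members were included. The log2 fold change of exosomes over cells was 8.45 (SE 0.64) for miR-3473a, 6.89 (SE 1.12) for miR-706, 6.89 (SE 0.97) for miR-3473b, 6.10 (SE 0.97) for miR-3473e and 2.10 (SE 0.37) for miR-3473d. The median of the 5 was 6.89, against -0.75 for all tested miRNAs. By size of the log2 fold change the ranks were 19, 30, 31, 40 and 124 of the 438. miR-706 and miR-3473b, of different repeats, had the same fold change to the second decimal.

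At an adjusted p under 0.05 of the quasi-likelihood test, 23.7% of the 438 tested miRNAs were called higher in exosomes and 29.5% lower. All 5 tested members were among those called higher, which the choice of the members largely fixed. The same 5 were called higher by the exactTest of edgeR with the criterion of the study (a fold of 2 or more, unadjusted p under 0.05). It called 27.4% of all tested miRNAs higher in exosomes. In normalized values the exosome libraries lay above the cell libraries for the same 5 members and for 33.3% of all tested miRNAs. The call of miR-3473d was lost without the filter on low counts and without either cell library, and that of miR-706 without cells replicate 2.

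**Figure D2:**
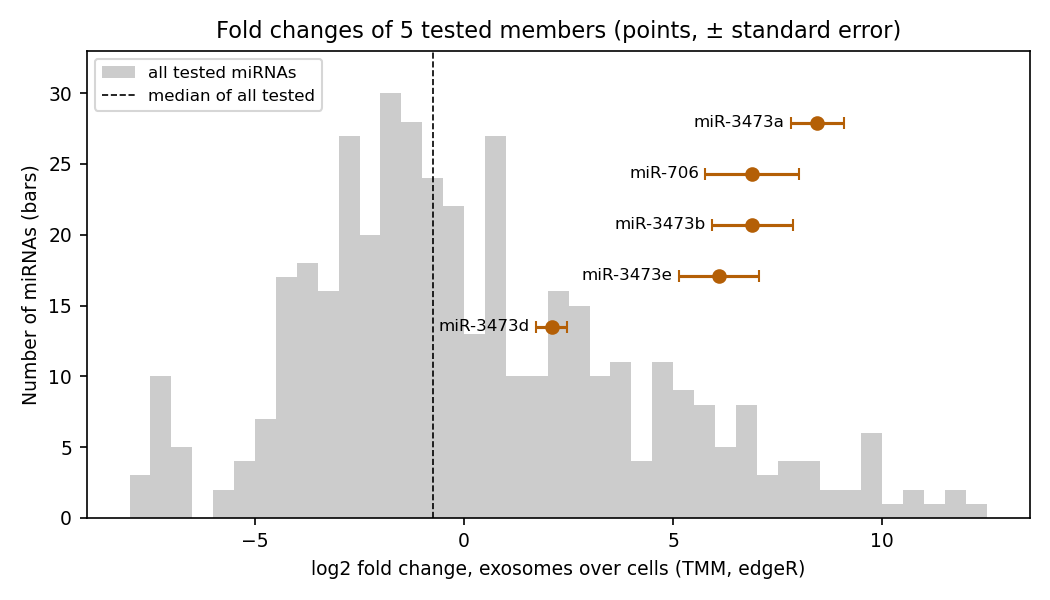
Log2 fold changes of exosomes over cells (horizontal axis) for the 5 tested members, as points with their standard error at arbitrary heights. Behind them is a histogram of the fold changes of tested miRNAs, which leaves out the far left tail (such as miR-16-2-3p at -11.85). The dashed line is the median of all 438 tested miRNAs, -0.75. miR-3473a, miR-706, miR-3473b and miR-3473e lie in the right tail between 6.10 and 8.45, and miR-3473d lies at 2.10.

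The size of the fold change depended on the scaling, since the median of all tested miRNAs moved with it from -0.75 (TMM) to 0.61 when only the library size was used and to -0.07 under upper quartile scaling. The median of the members was 8.08 and 7.64 under the same settings, so it moved up with that of all tested miRNAs. None of the 5 members changed direction under the settings shown in the plot of fold changes by setting.

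**Figure D3:**
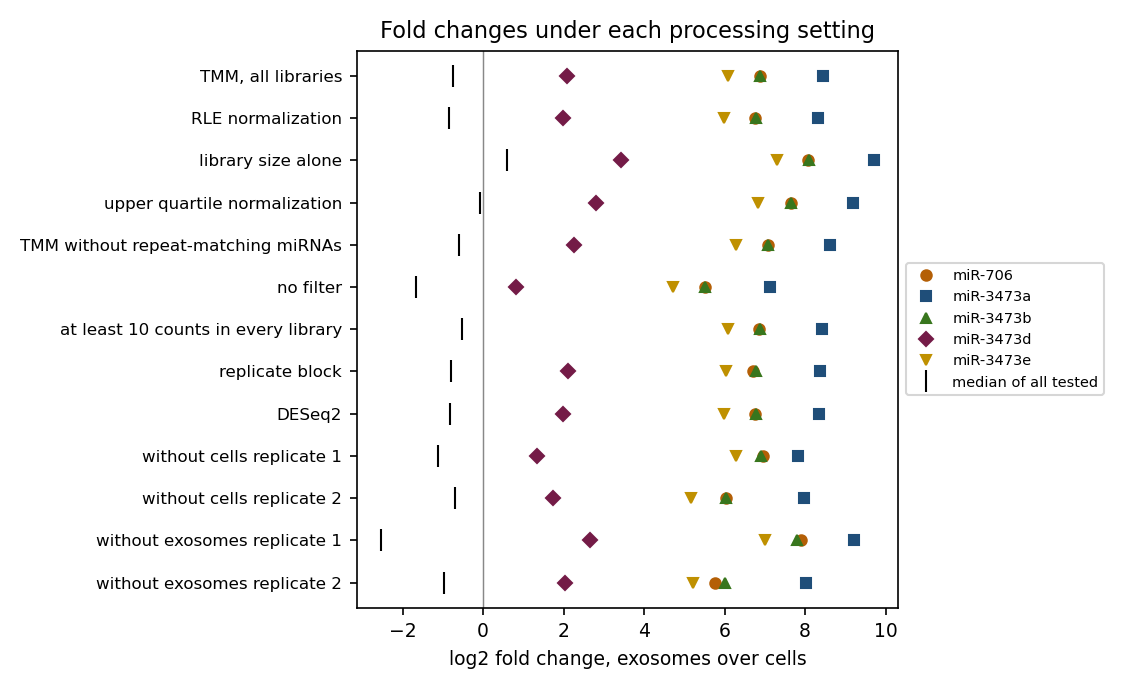
Log2 fold change of exosomes over cells (horizontal axis) of the 5 tested members, 1 symbol for each, under each processing setting (rows), with a black tick at the median of all tested miRNAs. The members stay on the right of 0 in every row, miR-3473d comes nearest to it at 0.81 without the filter, and it has no point where at least 10 counts were required in every library.

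The deposited files also count the reads on each hairpin and those that fall on neither annotated arm. The reads on the arm were the mature counts of the member itself. The reads off the arms are given as a description, since the members were chosen with earlier results of these data known. For mir-706, 20 of 2277 and 6 of 895 hairpin reads lay off the arms in cells (0.878% and 0.670%) and 18 of 3763 and 49 of 6991 in exosomes (0.478% and 0.701%). For mir-3473e the share was 0.118% and 0.344% in cells and 0.214% and 0.365% in exosomes, at 1 to 5 reads. Nearly all reads of these hairpins were thus counted on the listed mature sequence, and the groups overlapped. The libraries were made by polyadenylation and miR-706 ends in A bases, so the 3′ end of its reads cannot be told from the added tail. mir-3473b had 1.51% and 2.10% of its reads off the arms in cells and 4.94% and 4.56% in exosomes, higher in both exosome libraries. Its standing among hairpins with at least 10 reads did not rise with it. In cells 100 of 406 and 81 of 380 had a higher share, and in exosomes 88 of 245 and 93 of 179.

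The remaining hairpins were of another kind. mir-3473c held 48 and 29 reads in cells and 549 and 901 in exosomes, and all but 1 of them lay outside the annotated miR-3473c. Of all hairpin reads this was 0.000995% and 0.000701% in cells and 0.405% and 0.711% in exosomes. Reads were thus counted at this hairpin in exosomes while miR-3473c was not detectable at this depth. Whether these reads came from the hairpin was not tested.

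mir-3473d had 47 of 122 and 53 of 127 reads off the arm in cells (38.5% and 41.7%) and 154 of 168 and 120 of 129 in exosomes (91.7% and 93.0%). The Wilson intervals reached at most 50.4% in cells and at least 86.5% in exosomes, so the groups were apart by more than counting error. Among hairpins with at least 10 reads, its standing changed little. In cells 37 of 406 and 32 of 380 had a higher share, and in exosomes 24 of 245 and 28 of 179. The reads of this hairpin in exosomes were thus mostly not miR-3473d. mir-3473a had 50.0% and 84.3% of its 34 and 89 reads off the arm in cells and 39.3% and 42.9% of 303 and 310 reads in exosomes, where the cell libraries differed from each other.

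For comparison, the median share off the arms over all hairpins with at least 10 reads was 0% in both libraries of the cells and 0.275% and 6.45% in those of the exosomes. Over all hairpin reads the share was 10.9% and 9.58% in cells and 32.8% and 42.0% in exosomes. Summed over the 6 hairpins it was 6.45% ± 4.23 in cells and 11.5% ± 1.10 in exosomes (SD, n = 2). In each library the pooled share of the group lay above the median hairpin and below the share over all hairpin reads, in cells replicate 2 only just, at 9.44% against 9.58%. Of all reads off the arms, mir-690 gave 516276 of 527529 and 387066 of 396393 in cells, and mir-1195 gave 18261 of 44475 and 27983 of 53198 in exosomes.

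**Figure D4:**
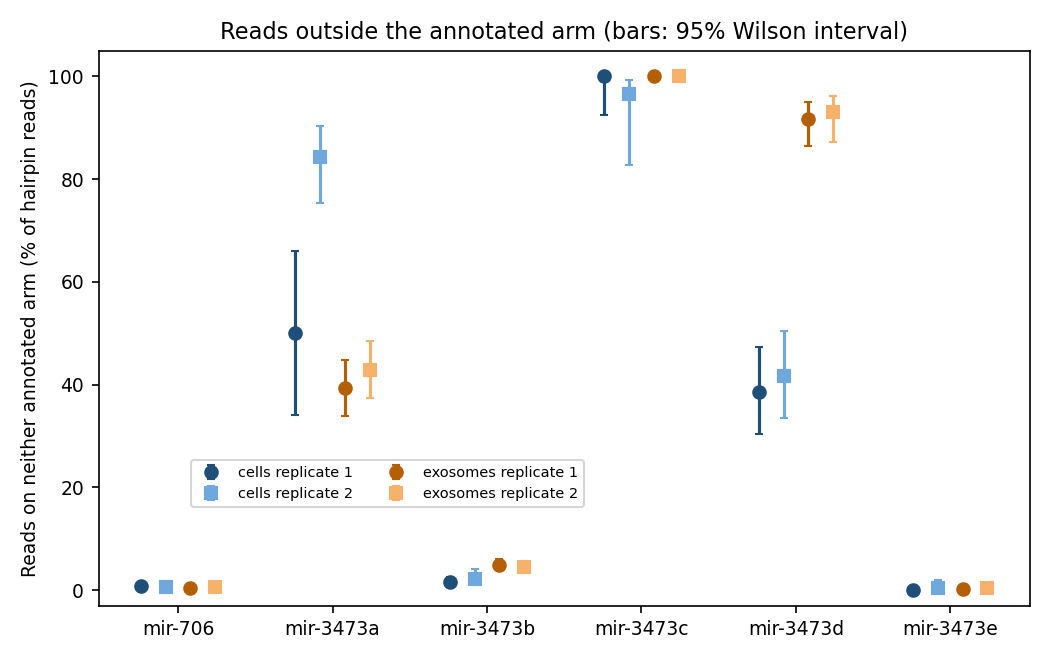
Share of the reads of each hairpin that lie on neither annotated arm (vertical axis, percent of the reads of the hairpin), for each library, with 95% Wilson intervals. mir-706, mir-3473b and mir-3473e lie under 5%, mir-3473c between 96.6% and 100%, mir-3473d near 40% in cells and above 91% in exosomes, and the cell libraries of mir-3473a lie apart.

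The hairpin sequences of mir-3473a to mir-3473d are shown with the mature miRNA in capitals, because they show which other letters of the group a read off the arm could hold.
mir-3473a: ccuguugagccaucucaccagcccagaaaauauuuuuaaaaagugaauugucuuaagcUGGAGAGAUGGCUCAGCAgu
mir-3473b: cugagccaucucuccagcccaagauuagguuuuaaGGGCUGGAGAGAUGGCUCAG
mir-3473c: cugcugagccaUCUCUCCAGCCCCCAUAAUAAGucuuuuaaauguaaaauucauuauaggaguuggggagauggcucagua
mir-3473d: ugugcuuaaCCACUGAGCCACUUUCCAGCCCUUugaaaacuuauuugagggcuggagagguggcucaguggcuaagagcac
In mir-3473b, which is only 55 bases long, bases 1 to 20 were the exact reverse complement of the mature miRNA at bases 36 to 55, so that its ends pair without a mismatch. In mir-3473c, bases 4 to 23 were the reverse complement of all 20 bases of miR-3473b, and they overlap the start of miR-3473c at base 12. mir-3473a held 18 bases of miR-3473b at bases 57 to 74, a start 2 bases before its own miRNA. mir-3473d held no run of 15 bases of another member. The files do not give the positions of reads in a hairpin, so which of these letters the reads off the arm had is not known.

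The predicted folds set the hairpins apart as well (minimum free energy by RNAfold, in kcal/mol per base, over 895 hairpins with a median of -0.415). mir-3473b was at -0.773, with 893 of the 895 less stable, and mir-3473d at -0.643, with 874 less stable. mir-3473c was at -0.511 and mir-3473a at -0.483, also more stable than the median. mir-706 (-0.305) and mir-3473e (-0.318) were less stable than the median, with only 88 and 118 hairpins less stable than they were.

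Hairpins of other miRNAs that hold at least 15 bases of a member were searched as well, and 7 were found. The 3 with most reads are shown with the shared run in capitals, as their reads are a second place where letters of the members can be counted.
mir-1195: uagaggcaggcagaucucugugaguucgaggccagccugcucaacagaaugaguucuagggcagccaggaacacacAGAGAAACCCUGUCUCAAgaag
mir-690: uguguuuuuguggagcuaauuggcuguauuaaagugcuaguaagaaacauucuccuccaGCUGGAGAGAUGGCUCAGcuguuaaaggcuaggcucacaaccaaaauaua
mir-3473f: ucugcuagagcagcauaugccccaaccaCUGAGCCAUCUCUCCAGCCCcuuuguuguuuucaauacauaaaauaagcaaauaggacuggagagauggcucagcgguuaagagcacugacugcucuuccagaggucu
mir-1195 holds the first 18 bases of miR-706 at bases 77 to 94, mir-690 holds 18 bases of miR-3473b at bases 60 to 77, and mir-3473f holds the reverse complement of miR-3473b at bases 29 to 48 and 17 of its bases on the same strand at bases 86 to 102. mir-1195 lies at chr17:70860503-70860600, mir-690 in an intron of Fgf12 on chromosome 16 and mir-3473f in an intron of Bcl2, the apoptosis inhibitor gene, at chr1:106546496-106546631.

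The reads off the arms of mir-1195 numbered 3201 and 1833 in cells and 18261 and 27983 in exosomes, or 0.0664% and 0.0443% of all hairpin reads in cells and 13.5% and 22.1% in exosomes. They thus followed the direction of miR-706, and outnumbered its counts in all 4 libraries. Those of mir-3473f were 0.00564% and 0.0183% of hairpin reads in cells and 1.35% and 1.81% in exosomes, in the direction of miR-3473b. Those of mir-690 went the other way, with 10.7% and 9.36% in cells and 4.07% and 1.74% in exosomes. The positions of these reads are not known, so whether the reads off the arms held the shared runs was not tested.

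**Figure D5:**
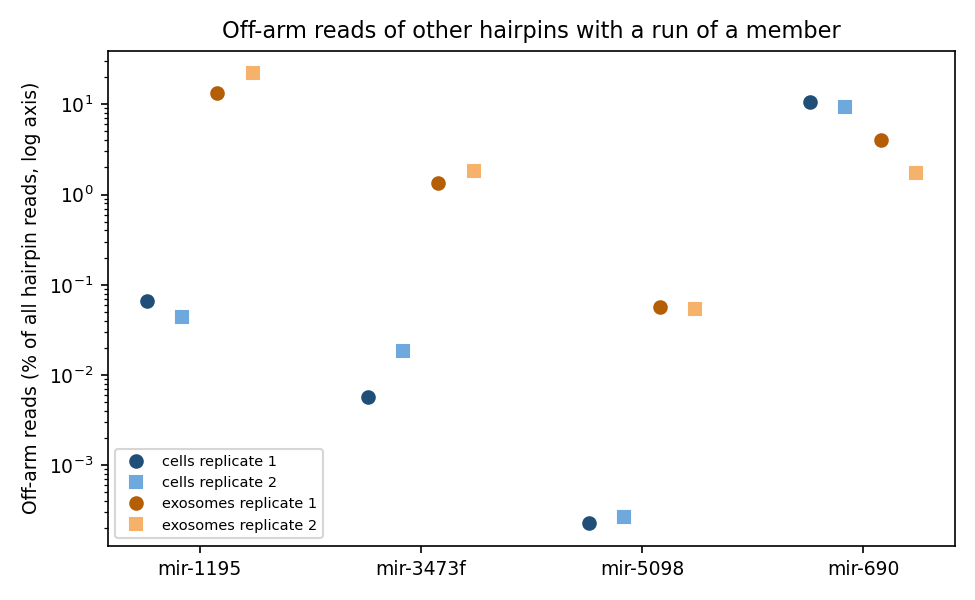
Reads off the annotated arms of 4 other hairpins that hold a run of a member, as percent of all hairpin reads of the library on a log axis, with 1 symbol per library. mir-1195, mir-3473f and mir-5098 are higher in both exosome libraries, and mir-690 is higher in both cell libraries.

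The same search gave 6 other mature miRNAs whose full sequence occurs in 10 or more genes, of which 5 were tested. All 5 were called higher in exosomes, with a median log2 fold change of 8.86. miR-466i-5p, found in 2025 genes, had 239 and 200 counts in cells and 2803 and 3597 in exosomes (log2 fold change 8.86, SE 0.90). miR-3470b, found in 546 genes, had 13 and 6 counts in cells and 188 and 235 in exosomes (9.45, SE 0.87), and miR-3470a, found in 441, had 1 and 2 against 26 and 28 (8.87, SE 0.77). miR-709 (57 genes) had 4 and 10 counts against 34 and 36, and miR-466f-3p (12 genes) had 226 and 143 against 266 and 201. Of 24 tested miRNAs found in 1 to 9 genes 10 were called higher and 4 lower, with a median of 0.53, and of 404 found in 0 genes 84 were called higher and 125 lower, with a median of -0.84. The members found in 0 genes, miR-3473d and miR-3473e, are not in these counts.

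Other miRNAs that carry the seed of a member without the rest of its sequence were too few to give a pattern. miR-185-5p carries the seed of miR-3473a and had 5028 and 3995 counts in cells and 255 and 177 in exosomes, a log2 fold change of 0.47. miR-674-5p carries the seed of miR-3473d and had 404 and 267 counts in cells and 4 and 3 in exosomes, a log2 fold change of -1.76. miR-1947-3p, which also has the seed of miR-3473d, had 2 counts in all, and miR-7649-3p and miR-882, with the seeds of miR-3473c and miR-3473a, had 0 in every library. No mature miRNA outside the group shared the seed of miR-706 or of miR-3473b and miR-3473e, and none held 15 bases of a member.

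The miRNAs with the profile most like the mean of the tested members over the 4 libraries (Euclidean distance of centred log2 normalized values) were miR-7668-3p (0.40), miR-5128 (0.59), miR-145a-5p (0.61), miR-669c-3p (0.77) and miR-3082-5p (0.77). Among the members themselves miR-3473e was nearest to this mean at 0.51, then miR-3473b at 0.91 and miR-706 at 0.94. miR-3473a at 2.21 and miR-3473d at 3.96 were the farthest, so several miRNAs outside the group were closer to its mean than most of its members. Those 5 were far less abundant than miR-706, at 17 to 203 counts in an exosome library.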

How the data were processed

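Small RNA libraries of MIN6 cells (2) and of the exosomes (2) were analysed. The authors deposited unnormalized read counts of mature miRNAs and of hairpins, the latter with the part on neither annotated arm, made by trimming adapters, removing rRNA and aligning in turn to the genome, to miRBase v21 and to RNAcentral v10.0. The submitters' processing notes name cutadapt, Bowtie, STAR, RSEM, Bowtie2, edgeR and mm10. Another 12 columns of values (RPM, and reads per arm, where a cell can hold several joined values) were not used. RPM values here are counts over the sum of the library.

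Groups and replicate numbers came from the labels. The 6 members and all lists were chosen with earlier results of these data known. miRNAs were kept by filterByExpr (minimum count 10), which left 438 of 1101 with a count. They were fitted with edgeR 4.0.16 (quasi-likelihood, TMM, Benjamini-Hochberg adjustment) in R 4.3.3, and each standard error was derived from the F statistic as the absolute log2 fold change divided by √F. DESeq2 1.42.0 and the exactTest of edgeR were alternatives, together with other scalings and filters, the replicate number as a block and each library left out. Mature sequences came from the deposited files (1461 miRNAs) or RefSeq (390), and were searched in GENCODE vM21 transcripts, leaving out genes over the own locus. No genome sequence was used. Folds were predicted with ViennaRNA 2.7.2. Python 3.11.15, pandas 2.3.3, scipy 1.17.1 and matplotlib 3.10.9 were also used. Fits were tested on simulated counts, and the functions for shared runs and reverse complements on made-up sequences. The transcript search itself was not tested in this way.

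Named miRNAs were the members, those with a shared seed or a run of 15 bases, the 5 nearest profiles, and the 5 other repeat-matching miRNAs with the highest mean in exosomes. miR-3473f, miR-3473g and hairpins of other miRNAs (mir-1195, mir-690, mir-3473f, mir-5098) are not covered by it and were chosen after seeing their values.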

Additional observations from a re-analysis of the deposited data

How the results depend on the processing

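Under the alternatives run, 59 log2 fold changes of members were computed, 0 of them changed sign and 43 stayed within the standard error of the reported value. The median of the members was 5.10 without the filter on low counts, where each of the 5 members lay lower (0.81 to 7.12), the median of all tested miRNAs was -1.67 and miR-3473c was added with 1 count, and 5.75 to 7.81 with each library left out. The number of miRNAs called higher was 104, or 37 with at least 10 counts required in every library, where only 100 miRNAs were tested, and 46 to 115 with each library left out. The number called lower was 129, or 30 with library size alone, 202 without the filter, 40 with at least 10 counts in every library, and 56 to 162 with each library left out. Higher calls were 44.6% of all calls with TMM, 82.0% with library size alone, 57.6% with upper quartile factors and 34.0% without the filter. Where a library was left out, the remaining library of its group was assumed to vary like the other group. The share of mature counts on the members was 14.2% to 35.6% in exosomes and 0.0640% to 0.140% in cells with each library left out, and the share in exosomes was 7.76% with hairpin reads as denominator. The number of genes with any member on the sense strand was 604, or 1239 with a match on either strand and 1902 with 1 mismatch allowed on the sense strand. The replicate numbers are only shared labels (correlation of the deviations 0.19 over 438 miRNAs). With them as a replicate block, the median of the members was 6.70, with 117 calls higher and 109 lower. The exosome libraries limit the depth, since 3 counts there equal 63.2 and 95.5 RPM.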
